A study of Mus musculus with 3 samples.

Results

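The Hox genes encode homeodomain transcription factors that give cells their position along the head-to-tail axis of the embryo. In mice they lie in 4 clusters, Hoxa on chromosome 6, Hoxb on chromosome 11, Hoxc on chromosome 15 and Hoxd on chromosome 2, and genes with the same number in different clusters are paralogues. Once a cell's identity is fixed, clusters that are not used are kept closed by Polycomb group proteins, and parenchymal liver cells use little of them, whereas mesenchymal cells such as fibroblasts keep a positional Hox code. HOX proteins bind DNA with partners of the PBX and MEIS families, which dock on a short peptide of many HOX proteins.

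All probes whose gene name on the array is a Hoxa, Hoxb, Hoxc or Hoxd symbol followed by a number were taken, which gave 44 probes for 39 genes of the 31803 gene names on the array. Of these genes, 34 had 1 probe and 5 had 2, among them Hoxa9, Hoxa13, Hoxb3 and Hoxd11. The probes were divided as 14 for 11 Hoxa genes, 11 for 10 Hoxb genes, 9 for 9 Hoxc genes and 10 for 9 Hoxd genes, and all 39 Hox genes of the RefSeq table were present. The accessions of 43 probes led to the same symbol in RefSeq. A separate reference set of promoters gave the gene's strand for 25 probes, and 25 of these 25 lay on that strand. The set was chosen as a check of loci thought silent, and it was selected on the processed signals and detection classes of these same arrays, so its levels and differences are a description and no test of the choice.

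Gene expression was measured in hepatocytes, the parenchymal cells of the liver, of male wild-type C57BL/6 mice aged 22 weeks, on 3 single-colour Agilent arrays with 1 array per group. Mice of the standard-diet array ate a standard diet, and those of the HFD-IgG and anti-VLA-4 arrays a high-fat diet, for 16 weeks from the age of 6 weeks. From week 10 of the high-fat diet, for 6 weeks, mice were injected 2 times a week with control IgG or with an antibody that blocks VLA-4, an integrin of leukocytes. All livers were digested with collagenase after an overnight fast. For standard-diet mice no injection is described, so diet and injection differ together. The number of mice behind an array is not in the labels. With 1 array per group no difference could be checked on replicates or given a p-value, and the variation among mice is unknown. The anti-VLA-4 array was on a slide of its own, apart from the slide of the other 2 arrays, so antibody and slide cannot be told apart.

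A level below is the processed signal of a probe divided by the 75th percentile of its array, which came to 574, 500.3 and 514 signal units on the standard-diet, HFD-IgG and anti-VLA-4 arrays. A probe is called detected where the scanner software classed its spots as well above background, that is, brighter than the background by a set multiple of the background's own spread. The lowest level of any detected probe was 0.0257 on the standard-diet array, 0.0315 on HFD-IgG and 0.0224 on anti-VLA-4. Below that, most spots carry a stand-in value set by the software, which was so for 43, 25 and 32 of the 62 Hox spots on these arrays, and such values have no order. None of the Hox spots were saturated or marked as outliers (0 of 62). Brightness also depends on the probe, so levels are compared between arrays and not between probes. Errors given with ± are the scanner software's error of a signal within an array, whose median was 10.1% to 10.2% of the signal.

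The array reads each transcript with a probe of 60 bases, and the share of purines (A plus G) of the Hox probes ran from 35.0% to 70.0% with a median of 55%, against a median of 50% over all 39395 probes. Of the 5 probes that hold a conserved Hox coding motif, 4 are shown whole, because they show that the signals were read on Hox coding sequence as well as elsewhere. Capitals mark the core of the PBX-binding hexapeptide in Hoxa6 and a part of the DNA-recognition helix of the homeodomain in Hoxc11. They mark a part of that helix in Hoxc12 as well, and the start of the helix in Hoxd10. Positions are on build mm9, as the files give them.
Hoxa6, chr6:52158194-52158253, minus strand: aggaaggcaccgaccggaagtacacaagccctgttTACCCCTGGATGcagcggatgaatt
Hoxc11, chr15:102787022-102787081, plus strand: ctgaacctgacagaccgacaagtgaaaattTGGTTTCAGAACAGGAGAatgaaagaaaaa
Hoxc12, chr15:102768889-102768948, plus strand: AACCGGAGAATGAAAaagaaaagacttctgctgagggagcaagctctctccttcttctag
Hoxd10, chr2:74532280-74532339, plus strand: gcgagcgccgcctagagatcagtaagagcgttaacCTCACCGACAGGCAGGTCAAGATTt

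Of the other probes, 30 bases are shown for some of those called higher below in HFD-IgG over standard diet, and for both probes of Hoxa9, which were not detected on the same arrays. Capitals here mark the longest stretch of A and G in the window. Which exon or untranslated region a probe lies in was not analysed here.
Hoxd4, in chr2:74566866-74566925, plus strand: tcatatggcAGGAGctactgagaacataaa
Hoxc10, in chr15:102801857-102801916, plus strand: GGAAAGAAAGGGGGAtaatcaaacagagag
Hoxb4, in chr11:96182885-96182944, plus strand: gtacagagtgacaacAGAAAtaaatgtttg
Hoxa13, purine share 68.3%, in chr6:52208856-52208915, minus strand: AAAAGGtggagcagagggcagcttgaagaa
Hoxd11, purine share 56.7%, in chr2:74522136-74522195, plus strand: AAAGAAAAGAAActgaacagggaccgtctg
Hoxa9, purine share 56.7%, in chr6:52174165-52174224, minus strand: aaaaagagagcaagctAGAAAGAAAAAGAA
Hoxa9, purine share 45%, in chr6:52175595-52175654, minus strand: ggttctcctccagttgatAGAGAAAAAcaa
The probes share little sequence: over all 946 pairs of Hox probes, the longest stretch that 2 probes shared was 11 bases. Purines lay in different forms, as a run of 15 bases in Hoxc10, of 18 in the first Hoxa9 probe (14 of them in the window) and of 5 in Hoxd4.

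The Hox clusters were mostly undetected on 2 of the arrays and much less so on the third. On the standard-diet array 7 of 44 Hox probes (15.9%) were detected, standing for 6 genes, against 56.8% of all probes. On HFD-IgG 20 Hox probes (45.5%, 19 genes) were detected, against 65.8% of all probes, and on anti-VLA-4 9 (20.5%, 8 genes), against 61.6%. The share of detected Hox probes was thus below that of all probes on each of the 3 arrays, but the clusters were not silent by this class on any of them. The median Hox level was 0.00810, 0.0302 and 0.00733 in the same order, against 0.0607, 0.110 and 0.0720 over all probes. Each Hox median lay under the lowest detected level of its array, so these medians are not ranked. On HFD-IgG 2 probes, for Hoxc5 and Hoxd4, lay above the array's 75th percentile, and on the other arrays the highest Hox levels were 0.0729 and 0.0952.

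**Figure D1:**
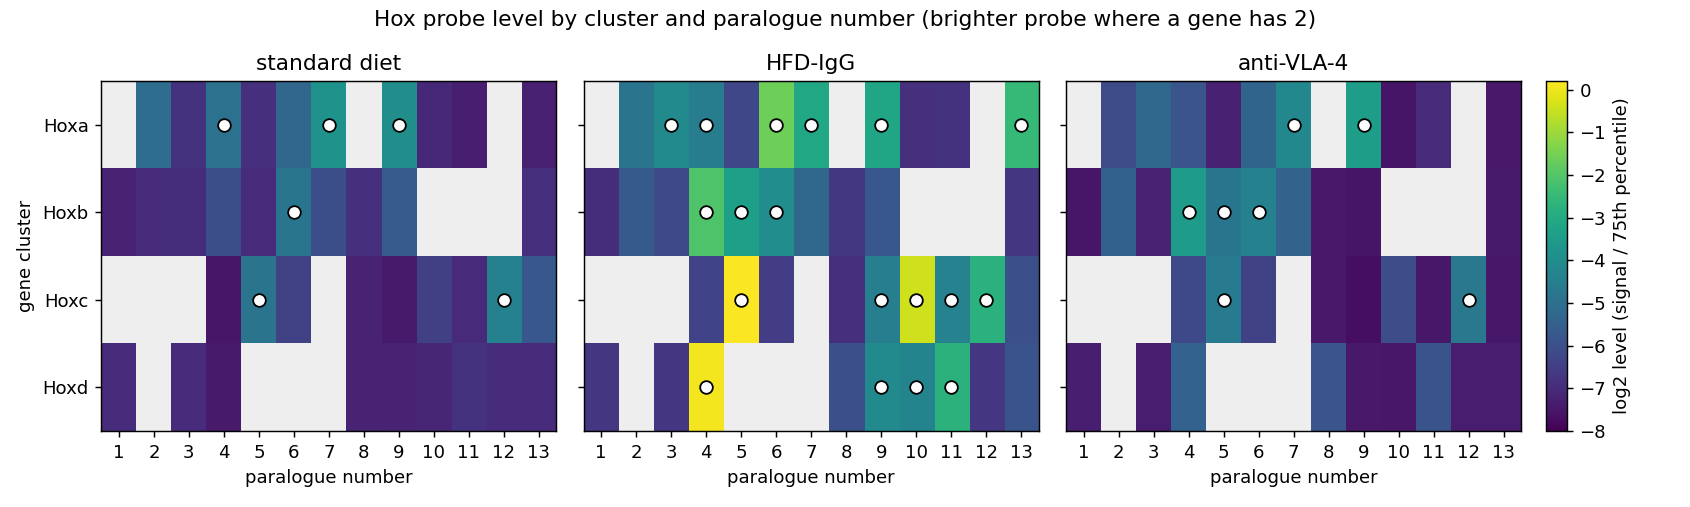
Log2 level (colour) of each Hox gene, with clusters as rows and paralogue numbers as columns, on each of the 3 arrays; the brighter probe is shown for genes with 2, grey marks positions with no gene or none shown, and a white dot marks a detected probe. Detected genes are scattered over the clusters, with the most on HFD-IgG, and the 4 detected Hoxd genes are detected on HFD-IgG and on neither other array.

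Each cluster had more detected probes on HFD-IgG than on standard diet. Hoxa had 4 of 14 probes detected on standard diet, 8 on HFD-IgG and 4 on anti-VLA-4. Hoxb had 1, 3 and 3 of 11, and Hoxc 2, 5 and 2 of 9. Hoxd had 0 of 10, 4 of 10 and 0 of 10. By position within the clusters, paralogues 1 to 4, at the anterior end, had 1, 5 and 2 of 14 probes detected, paralogues 5 to 8 had 3, 5 and 4 of 11, and paralogues 9 to 13, at the posterior end, 3, 10 and 3 of 19. No cluster and no end of the clusters was free of detected probes on HFD-IgG.

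Across the arrays, 23 Hox probes (52.3%, against 28.5% of all probes) were detected on none, and 20 of the 39 genes had no detected probe at all. Another 11 probes (25%, against 7.90% of all probes) were detected on HFD-IgG alone. These were Hoxa3, Hoxa6, both probes of Hoxa13, Hoxc9, Hoxc10, Hoxc11, Hoxd4, Hoxd9, Hoxd10 and the probe of Hoxd11 with a purine share of 56.7%. No Hox probe was detected on standard diet alone or on anti-VLA-4 alone (0 and 0). Detected on all 3 arrays were 5 probes (11.4%, against 53.4% of all probes), for Hoxa7, Hoxa9, Hoxb6, Hoxc5 and Hoxc12. Of 3 probes detected on both high-fat-diet arrays and not on standard diet, 2 were those of Hoxb4 and Hoxb5. Hoxa4 was detected on standard diet and HFD-IgG, and the second Hoxa9 probe on standard diet and anti-VLA-4.

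A difference between arrays was called where it was at least 2-fold and the brighter array detected the probe. Where the dimmer array did not, the fold is a lower bound, taken against the lowest detected level of that array or the probe's own level if that was higher, and is given with the words at least. In HFD-IgG over standard diet 13 Hox probes were higher, where 19.7% of all compared probes were, and 0 were lower, where 2.34% were. Of the 21 Hox probes compared, 15 had only a bound, and the median log2 difference was 1.53, against 0.035 over all compared probes. Since 15 of the 21 entered through 1 array only, this median follows in part from the filter, and over all 44 probes with their own values it was 0.80, against 0.19. With quantile normalization the median of the compared Hox probes was 0.39, with local background subtracted 0.56 and with normexp 2.08. In anti-VLA-4 over HFD-IgG 0 Hox probes were higher, where 1.88% of all compared probes were, and 16 of 21 were lower, where 16% were, with a median of −1.39 against −0.068. Here 13 of the 21 had only a bound, and over all 44 probes with their own values the median was −1.11, against −0.21. These 2 comparisons share the HFD-IgG array. In anti-VLA-4 over standard diet 1 of 10 Hox probes, for Hoxb4, was higher, where 7.56% of all compared probes were, and 0 were lower, where 3.26% were, and the median was 0.31 against −0.0029. Over all 44 probes with their own values that median turned to −0.22, against −0.11.

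The counts depended on the scaling. Normexp background correction moved the median of all probes in HFD-IgG over standard diet by 1.51 on the log2 scale and quantile normalization by −0.32. The number of Hox probes at least 2-fold higher in that comparison was 20 with normexp, 7 with quantile normalization and 6 with the local background subtracted and 50 added. Quantile normalization turned the direction for 4 probes (Hoxa4, Hoxa7, Hoxb6 and the Hoxa9 probe of 56.7%). A call of at least 2-fold higher held under all 4 other scalings for 6 probes, Hoxa6, Hoxa13 (the probe of 68.3%), Hoxb4, Hoxc5, Hoxc10 and Hoxd4. In anti-VLA-4 over HFD-IgG a call of lower held under all 4 for Hoxc5, Hoxc10 and Hoxd4 (3 probes), and under the 3 other than normexp for Hoxa6 and the Hoxa13 probe of 68.3% as well.

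Hoxc5 was detected on every array. Its level was 0.0350 (20.1 ± 4.3 signal units) on standard diet, 1.103 (552 ± 55.4) on HFD-IgG and 0.0406 (20.9 ± 3.6) on anti-VLA-4. HFD-IgG stood apart from the other arrays, which differed from each other by 1.16-fold, within their scanner errors. The signal on HFD-IgG was 31.5-fold that on standard diet (log2 difference 4.98, SE from the scanner errors 0.34) and 27.2-fold that on anti-VLA-4. Its probe has a purine share of 48.3%, under the median of all probes.

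Hoxd4, which takes part in patterning the vertebrae of the neck, was detected on HFD-IgG alone. Its level there was 1.04 (523 ± 52.4 signal units), with 0.00592 on standard diet and 0.0234 on anti-VLA-4, neither well above background. HFD-IgG was at least 40.6-fold above standard diet and at least 44.6-fold above anti-VLA-4. The bounds are set by the lowest detected levels of those arrays or by the probe's own level.

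Hoxc10, a gene of the lumbar region and hindlimb, has the probe with the largest purine share of the 44, 70.0%. Its level was 0.0114 on standard diet, 0.761 (381 ± 38.2 signal units) on HFD-IgG and 0.0149 on anti-VLA-4. It was detected on HFD-IgG alone, at least 29.6-fold above standard diet and at least 33.9-fold above anti-VLA-4.

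Hoxa6, read on its hexapeptide region, had levels of 0.0255, 0.329 and 0.0242. Its HFD-IgG level was at least 12.8-fold above standard diet and at least 13.6-fold above anti-VLA-4, on which the gene was not detected.

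Hoxb4, known for its role in blood stem cells, differed from these in its level on anti-VLA-4. The levels were 0.0153, not well above background, on standard diet, 0.238 (119 ± 12.4 signal units) on HFD-IgG and 0.0909 (46.7 ± 5.25) on anti-VLA-4. Both high-fat-diet arrays detected it, HFD-IgG being 2.62-fold above anti-VLA-4, and anti-VLA-4 at least 3.54-fold above standard diet. Normexp and the subtraction of local background put the first of these under 2-fold (log2 differences of −0.55 and −0.77). The subtraction of local background did so for the second too (0.63).

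Both probes of Hoxa13, a gene of the distal limb and the genital tubercle, were detected on HFD-IgG and on no other array. The probe with a purine share of 68.3% had levels of 0.00595, 0.176 and 0.00576, and the probe with 60% levels of 0.00663, 0.102 and 0.00574. HFD-IgG was at least 6.84-fold and at least 3.96-fold above standard diet for these probes, and at least 7.84-fold and at least 4.54-fold above anti-VLA-4. The 2 probes thus gave the same pattern of detection.

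The probes of Hoxd11, a gene of the forearm and kidney, did not. The probe of 56.7% had levels of 0.00898, 0.151 and 0.0170, and was detected on HFD-IgG alone, at least 5.86-fold above standard diet and at least 6.72-fold above anti-VLA-4. The probe of 51.7% was detected on none of the arrays, with 0.0341 on HFD-IgG, 0.00729 on standard diet and 0.00484 on anti-VLA-4.

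**Figure D2:**
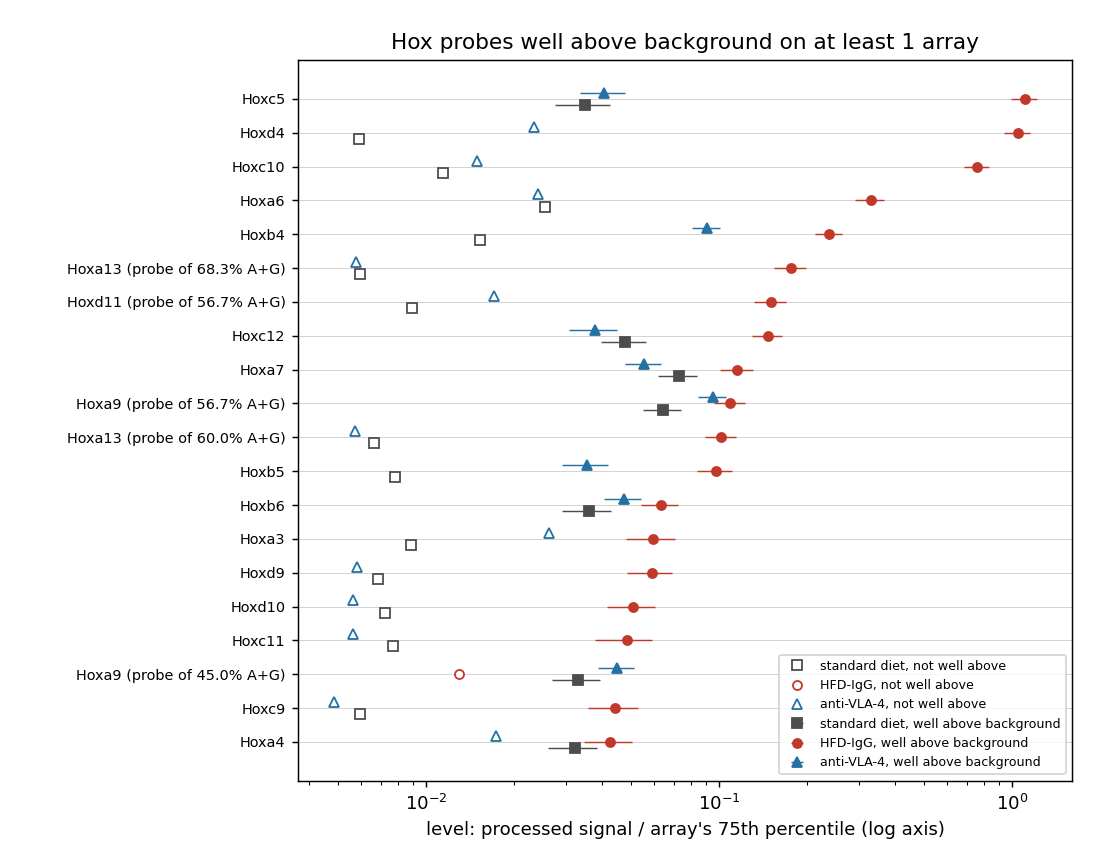
Level on a log axis of 20 of the 21 Hox probes detected on at least 1 array, ordered by their highest level; filled symbols are detected, open symbols are not well above background, and bars are ± 1 scanner error of detected probes. The HFD-IgG points of Hoxc5 and Hoxd4 lie above 1, far to the right of the other 2 arrays, while those of Hoxa9, Hoxb6 and Hoxa4 lie close to the others.

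The remaining genes detected on all arrays differed less. Hoxc12, read on its homeodomain, had levels of 0.0479, 0.147 and 0.0378, so that HFD-IgG was 3.07-fold above standard diet and 3.89-fold above anti-VLA-4, both sides being measured. Hoxa7 had levels of 0.0729, 0.116 and 0.0556, which is 1.59-fold above standard diet and 2.08-fold above anti-VLA-4. Hoxb6, with a purine share of 35.0% among the lowest of the set, had levels of 0.0359, 0.0635 and 0.0474. The differences of Hoxb6 were under 2-fold in every comparison.

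Hoxa9, a regulator of blood progenitors, was detected on different arrays by its probes. The probe of 56.7% had levels of 0.0644, 0.109 and 0.0952, all detected, with HFD-IgG 1.7-fold above standard diet. The probe of 45% had levels of 0.0331 and 0.0450, detected, on standard diet and anti-VLA-4, and 0.0129, not detected, on HFD-IgG. It was the 1 Hox probe that the standard-diet array detected and the HFD-IgG array did not.

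Hoxb5 had 0.0973 on HFD-IgG and 0.0355 on anti-VLA-4, both detected, and 0.00785 on standard diet. HFD-IgG was 2.74-fold above anti-VLA-4 for Hoxb5 and at least 3.78-fold above standard diet.

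Hoxa4, at 35.0% purines, had 0.0322 on standard diet and 0.0425 on HFD-IgG, both detected, and 0.0173 on anti-VLA-4. The other 5 genes detected on HFD-IgG alone were close to its limit of detection. Their HFD-IgG levels were 0.0594 for Hoxa3, 0.0589 for Hoxd9, 0.0509 for Hoxd10, 0.0484 for Hoxc11 and 0.0442 for Hoxc9, with 0.00593 to 0.00892 on standard diet and 0.00483 to 0.0263 on anti-VLA-4. HFD-IgG was at least 2.31-fold above standard diet for Hoxa3 and at least 2.29-fold for Hoxd9, but the bounds for Hoxd10, Hoxc11 and Hoxc9, 1.98, 1.88 and 1.72, did not reach 2-fold.

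A pair of probes was spotted 10 times each on every array, and neither was well above background. For Hoxa11, a gene of the forearm and uterus whose probe has a purine share of 60%, 0 of 10 spots were well above background on each array. Its median level over spots was 0.00644 on standard diet, 0.00784 on HFD-IgG and 0.00593 on anti-VLA-4, with an SD of log2 level of 0.23, 0.54 and 0.80. Of its 10 spots 9, 6 and 6 carried the stand-in value, so these SDs do not give the spread of measured signals. By the weaker class of a signal significantly above background, 1, 4 and 4 of its 10 spots passed. For Hoxb1, a hindbrain gene at 43.3%, 0 of 10 spots were well above background on each array, and all 10 carried the stand-in value. A Hoxb3 probe also stayed undetected, with a purine share of 65% and a level of 0.0138 on HFD-IgG. On that array 4 of 5 Hox probes of over 60% purines were detected, and 82.3% of all probes of that class.

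Base composition and detection were set against each other because the choice of these genes named that comparison. On HFD-IgG, 15 of 30 Hox probes of over 50% purines were detected (50%) and 5 of 14 of at most 50% (35.7%). On standard diet the same classes gave 3 of 30 (10%) and 4 of 14 (28.6%), and on anti-VLA-4 6 of 30 (20%) and 3 of 14 (21.4%). Over all probes the classes over 50% and at most 50% gave 69.6% and 62.1% on HFD-IgG, 52.8% and 60.7% on standard diet and 57.5% and 65.7% on anti-VLA-4, so the class with the larger share turned between HFD-IgG and the other arrays there as well. In the class over 60%, 4 of 5 Hox probes were detected on HFD-IgG and 1 of 5 on each other array, where all probes of that class gave 82.3%, 50.03% and 54.5% for HFD-IgG, standard diet and anti-VLA-4. In the class of at most 40%, 2, 2 and 1 of 4 Hox probes were detected on standard diet, HFD-IgG and anti-VLA-4, and 66.1%, 64.1% and 71.1% of all probes, with HFD-IgG the lowest.

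**Figure D3:**
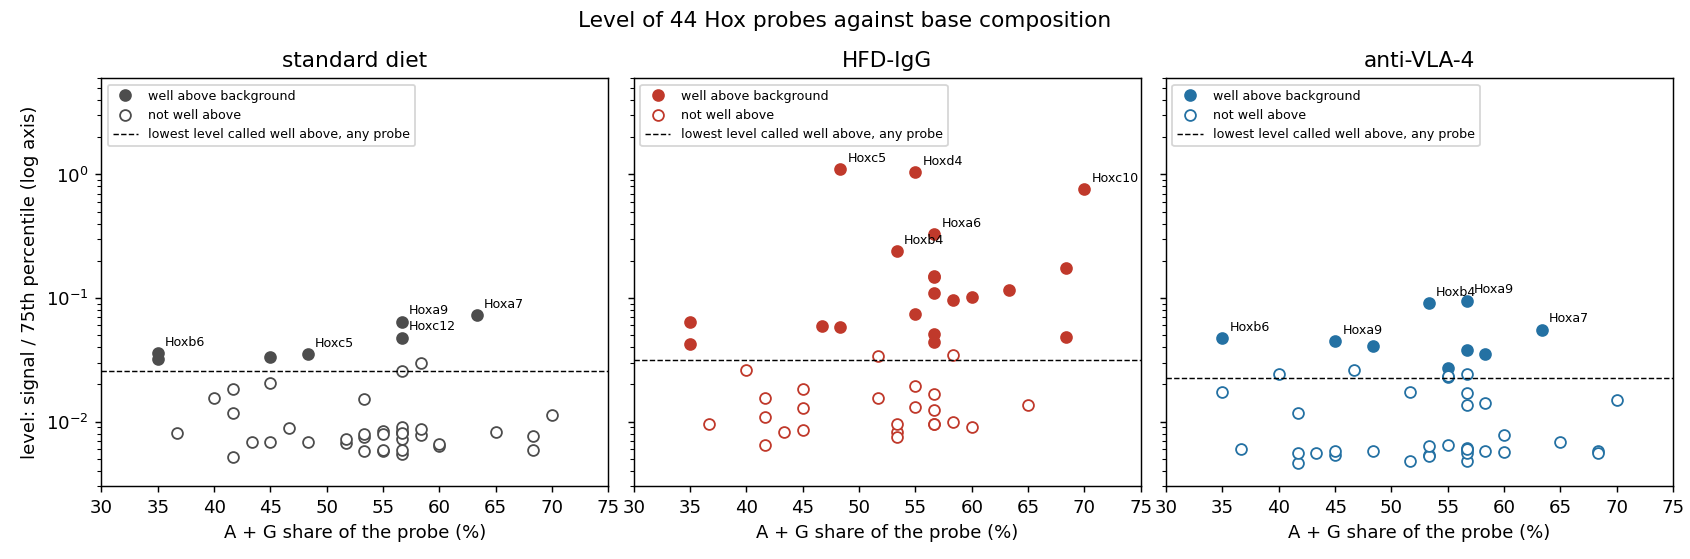
Level on a log axis of each of the 44 Hox probes against the purine (A + G) share of the probe in percent, on each array, with detected probes filled and the lowest detected level of any probe as a dashed line. On HFD-IgG the filled points are spread from 35.0% to 70.0% with 15 of 20 over 50%, and 3 of 7 filled points on standard diet and 6 of 9 on anti-VLA-4 are over 50%, as are 30 of all 44 probes.

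Among probes not detected on standard diet or anti-VLA-4, 11 of 34 Hox probes (32.4%) were detected on HFD-IgG, against 21.7% of all such probes. By class of purine share these were 0 of 2 at up to 40%, 2 of 8 at over 40% to 50%, 6 of 20 at over 50% to 60% and 3 of 4 above 60%. The same shares over all probes were 3.96%, 8.01%, 23.2% and 62.8%. The classes over 50% had Hox shares of 30% and 75%, nearer those of all probes than the class over 40% to 50%. In that class the Hox share was 25%, against 8.01%, and rested on 2 probes, Hoxa3 and Hoxd9.

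Receptor genes whose main site of use is the nose were read in the same way. Of 1186 probes of olfactory receptor genes, 14.7% were detected on standard diet, 35.7% on HFD-IgG and 18.1% on anti-VLA-4, which for the Hox probes was 15.9%, 45.5% and 20.5%. In the class over 60% purines, 4.20%, 67.5% and 7.69% of olfactory receptor probes were detected, and in the class of at most 40% 31.8%, 24.6% and 35.8%, with HFD-IgG the lowest. Of 121 vomeronasal receptor probes, 11.6%, 22.3% and 16.5% were detected. Over all probes of a family the order of the 3 arrays in detection was the same in the 3 families. That order also held over all probes of the array, at 56.8%, 65.8% and 61.6% on standard diet, HFD-IgG and anti-VLA-4. At least 2-fold higher in HFD-IgG over standard diet were 61.9% of 21 compared Hox, 53.0% of 466 olfactory and 42.4% of 33 vomeronasal receptor probes. In anti-VLA-4 over HFD-IgG 76.2% of 21, 53.4% of 496 and 40% of 35 such probes were lower. The part of base composition in the Hox result was not tested.

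**Figure D4:**
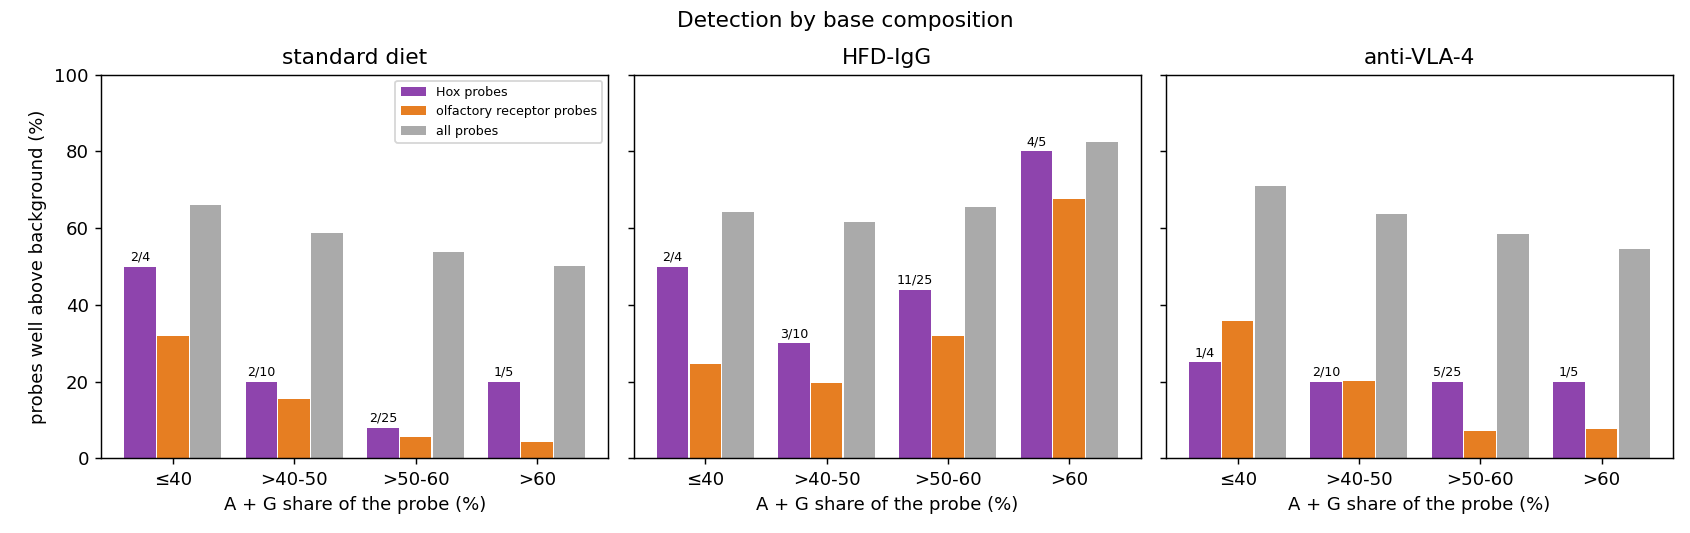
Percent of probes detected by class of purine share, on each array, for Hox probes (with their counts), olfactory receptor probes and all probes. On HFD-IgG the percent is highest in the class over 60% for each set, 4 of 5, 67.5% and 82.3%, and on standard diet and anti-VLA-4 olfactory receptor probes of that class are at 4.20% and 7.69%.

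Over the 44 Hox probes, the log2 level correlated with purine share at a Pearson r of −0.17 on standard diet (Spearman rho −0.12), 0.32 on HFD-IgG (0.32) and −0.051 on anti-VLA-4 (0.022). The log2 difference of HFD-IgG from standard diet gave an r of 0.42 (rho 0.37), against 0.34 (0.30) over all 39395 probes. In the comparison of anti-VLA-4 with HFD-IgG r was −0.42 (rho −0.38), against −0.37 (−0.34), and for anti-VLA-4 over standard diet 0.12 (−0.0023). Over the probes detected on that array the sign turned on 2 arrays, with an r of 0.87 over 7 probes on standard diet and 0.078 over 9 on anti-VLA-4. The probes of an array share its RNA, its background and its stand-in values, so these are descriptions. Among the 6 Hox probes detected on both arrays r was 0.056 for HFD-IgG over standard diet, and among 8 such probes 0.048 for anti-VLA-4 over HFD-IgG.

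Genes that work with HOX proteins, or act on the clusters, were read from lists. Levels and folds are of 1 probe per gene in these and the other gene lists. Of 9 genes of HOX cofactors, 8 were detected on each array, and of their 15 probes 12, 13 and 12. In HFD-IgG over standard diet 2 of the 9 were at least 2-fold higher and 1 lower. The higher ones were Meis2 (3.34-fold) and Pbx4, a cofactor of the testis whose probe has a purine share of 63.3%, which had levels of 0.0228, 0.704 and 0.0350 and was at least 27.4-fold higher. Pknox2 was at least 4.17-fold lower. In anti-VLA-4 over HFD-IgG 0 of 8 cofactors compared were higher and 2 lower, Meis2 by 2.15-fold and Pbx4 by 20.1-fold. Of 27 genes of the Polycomb complexes, which close Hox clusters, 25, 24 and 26 were detected, and of their 39 probes 35, 31 and 35. In HFD-IgG over standard diet 1 Polycomb gene was higher (Cbx6, 2.03-fold) and 0 lower. In anti-VLA-4 over HFD-IgG 0 Polycomb genes differed by 2-fold. Of 10 genes of Trithorax proteins and histone demethylases, which keep Hox clusters open, 0 were higher or lower in either of these comparisons.

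The label of the cells was checked on markers, and markers of other liver cells moved with the arrays. All 6 hepatocyte marker genes were detected on every array, with a summed level of 2416 on standard diet, 2356 on HFD-IgG and 2081 on anti-VLA-4. In HFD-IgG over standard diet 0 of the 6 were at least 2-fold higher and 1, Cps1, was 2.20-fold lower. Their median log2 difference was −0.32. The summed level of 9 stellate cell and fibroblast genes, the mesenchymal cells of the liver, was 1.77, 18.8 and 9.33, with 7 of the 9 at least 2-fold higher on HFD-IgG than on standard diet. Col1a1, Col3a1, Des, Lrat, Pdgfrb and Reln were not well above background on standard diet, nor Des and Reln on anti-VLA-4. Acta2 was 1.37-fold lower on HFD-IgG than on standard diet. For 9 sinusoidal endothelial genes the sum was 14.8, 54.3 and 33.1, with 7 higher, and for 8 Kupffer cell and macrophage genes 8.28, 53.4 and 38.3, with 8 higher and Cd68 and Timd4 not well above background on standard diet. For 6 haematopoietic genes it was 0.155, 0.743 and 0.496, with 3 of 4 compared higher and Gata1 not well above background on any array. For 4 cholangiocyte genes it was 0.396, 0.478 and 0.230, with 2 higher. Those 2, Epcam and Krt7, have probes of 71.7% and 65% purines and were not well above background on standard diet. The others, Krt19 and Sox9, were 1.17-fold and 1.66-fold lower on HFD-IgG than on standard diet. All of these sums, like the Hox detection counts, were highest on HFD-IgG except that of the hepatocytes. In anti-VLA-4 over standard diet 8 of 8 Kupffer cell and macrophage, 7 of 9 endothelial and 5 of 7 compared stellate genes were higher. For haematopoietic and cholangiocyte genes it was 3 of 5 and 0 of 2, for Hox probes 1 of 10, and for all probes 7.56%. Lower than on HFD-IgG were, in that order, 0 of 8, 3 of 9, 3 of 9, 1 of 5 and 3 of 4. For Hox probes it was 16 of 21, and for all probes 16%. The part of these cells in the Hox result was not tested. In RNA of a whole preparation, more cells of a type and more RNA per cell cannot be told apart.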

How the data were processed

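RNA of the 3 hepatocyte preparations was labelled with Cy3 and hybridised to 1 array each, per the labels. Spot intensities were deposited as the scanner software gave them, with background subtraction and detrending, per the file headers. The submitters' processing notes name that software as Agilent Feature Extraction 11.0.1.1. Spot classes, such as well above background, and the software's error are other values per the file headers. The deposited table holds the ratio of the processed signal to the array's 75th percentile (largest relative deviation 2.0e-08) for 23206 spots, 5 of them Hox, with medians of 0.79, 0.80 and 0.81, and 0 columns were left unused.

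Levels were computed from 43020 non-control spots. Spots flagged as non-uniform or as population outliers were dropped, and log2 signals were averaged over the spots of each probe. A probe counted as detected where most of its spots were well above background. The members and the gene lists were chosen with earlier results of these data known. Some items, sequences included, are not reported here. The other Hox genes detected on an array were named, with values for its probes and for the undetected probe of a pair, and undetected genes are given by count. The olfactory and vomeronasal receptor probes were taken by their Olfr and Vmn symbols. RefSeq names came from a table of build GRCm38.p6, whose coordinates were not used. The steps were tested on simulated data. Alternatives were quantile normalization, normexp with offset 50, the median of probes detected on all arrays, other thresholds, filters and measures of composition. The longest purine run and the subtraction of local background with 50 added were chosen after seeing the data. The background correction and quantile step ran in limma 3.58.1 under R 4.3.3, and the rest in pandas 2.3.3 and numpy 2.4.6 under Python 3.11.15. The number of arrays limits the precision.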

Additional observations from a re-analysis of the deposited data

How the results depend on the processing

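No paired analysis was possible because each group has 1 array, and no replicate could be left out. Scaling on the median of probes detected on all arrays changed none of the counts, medians or correlations over the Hox probes by more than its tolerance (1.5-fold for a count, the median scanner error for a median, 0.1 for a correlation). In HFD-IgG over standard diet, the count of Hox probes at least 2-fold higher (13) was 7 at a threshold of 4-fold, 6 with local background subtracted, 20 with normexp, 7 with quantile normalization (and 1 lower), 21 without a filter on dim probes (and 1 lower) and 2 where both arrays had to detect the probe. In anti-VLA-4 over HFD-IgG, the count lower (16) was 7, 5, 3 and 9 (and 1 higher) in the first 4 of these and 6 in the last, and without a filter 1 was higher. In anti-VLA-4 over standard diet, the count higher (1) was 0 at 4-fold, 0 with local background subtracted, 0 where both arrays had to detect the probe, 9 with normexp and 8 without a filter (and 3 lower). The median in anti-VLA-4 over HFD-IgG (−1.39) was −0.53 with local background subtracted, −0.50 with normexp and −0.61 with quantile normalization, and that in anti-VLA-4 over standard diet (0.31) was 1.37 with normexp and −0.22 over all Hox probes with no filter. With the weaker class of significance in place of well above background, 18, 33 and 26 Hox probes were detected on standard diet, HFD-IgG and anti-VLA-4, which was 30%, 76.7% and 60% over 50% purines and 64.3%, 71.4% and 57.1% at most 50%.

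The correlation of level with purine share was 0.17 on HFD-IgG and 0.023 on anti-VLA-4 with the share of A alone, −0.032 on standard diet with that of G alone, and 0.14, 0.18 and 0.015 on standard diet, HFD-IgG and anti-VLA-4 with G plus C. With the longest purine run it was 0.38 on standard diet and 0.29 on anti-VLA-4, and with the purine share over only the probes detected on that array it was 0.87 and 0.078. The correlation of the difference, in HFD-IgG over standard diet, was 0.19 with the longest run and 0.056 over probes detected on both arrays. In anti-VLA-4 over HFD-IgG it was −0.23, 0.048, −0.30 with local background subtracted and −0.24 with normexp, and in anti-VLA-4 over standard diet −0.028 with the longest run, −0.62 over probes detected on both arrays and 0.26 with normexp. After normexp the 1st percentile of signal was 58.1 on standard diet, 424 on HFD-IgG and 269 on anti-VLA-4, from 3.01, 3.24 and 2.33 in the processed signal, so each array gained a base of its own size. Of the differences of single probes under the 4 scalings, 81 moved by more than the scanner error, 127 did not, and 0 of the called ones reversed.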

Other observations

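Relatives of the Hox genes outside the clusters were largely undetected too. Of 13 ParaHox genes and near relatives, 0 were detected on standard diet, 3 on HFD-IgG and 1 on anti-VLA-4. The shares over all probes were 56.8%, 65.8% and 61.6%. On HFD-IgG these were Gbx1, at least 8.24-fold above standard diet, Gsx1, at least 5.58-fold, and Meox1, at least 4.005-fold, whose probes have purine shares of 61.7%, 45% and 53.3%. Cdx2, an intestinal regulator that acts upstream of Hox genes, was the gene detected on anti-VLA-4 alone, at a level of 0.0730 with 0.00559 on standard diet and 0.00651 on HFD-IgG, and was at least 2.84-fold and at least 2.32-fold above them. Of 75 genes of other homeobox families, 25, 33 and 26 were detected on the 3 arrays. In HFD-IgG over standard diet 12 of the 37 compared were at least 2-fold higher and 4 lower. Over all compared probes the shares were 19.7% and 2.34%.

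The antisense transcript Hoxa11as, the one noncoding transcript of the Hox clusters looked for that the array reads, was detected on every array, at 0.0791 on standard diet, 0.169 on HFD-IgG and 0.115 on anti-VLA-4, and was 2.14-fold higher on HFD-IgG than on standard diet, while 0 of the 10 spots of its partner Hoxa11 were well above background on each array.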
